A study of Mus musculus with 6 samples.

Results

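The long noncoding RNA genes expressed in immortalised mouse macrophages are described here in wild-type (WT) cells and in cells labelled as knockout (KO) for 4-1BBL, a ligand of the TNF family that is encoded by Tnfsf9. The genes were chosen by their measured level. They are the lincRNA genes of the GENCODE M21 annotation whose mean over the 6 libraries was at least 1 FPKM (fragments scaled to exon length and to library size), together with AI506816, Neat1 and Malat1. Neat1 and Malat1 met the level rule by themselves. AI506816, which the annotation calls a processed transcript, was added because of its large difference between the groups, so its values are a description and carry no test. This gave 120 genes of the 54532 in the files. Of 5535 lincRNA genes in the files, 1046 were above 0 in at least 1 library, 119 reached the level and 927 stayed below it. All 119 entered the test.

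Each group had 3 libraries. Both held bone marrow-derived macrophages immortalised by retroviruses that carry v-raf and v-myc, so WT cells also express these oncogenes, and both were treated with 10 ng/ml of IL-4 for 24 hours before RNA was taken. IL-4 is the cytokine that drives the alternative activation of macrophages. Whether the 3 libraries of each group are separate cultures, animals or lines is not stated in the labels, so the p-values reflect spread that may be technical. Untreated cells were not analysed here, and no value below is a response to IL-4.

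A long noncoding RNA is a long transcript that has no recognised long open reading frame. Many, but not all, are spliced and polyadenylated much like a messenger RNA. Some act in the nucleus as scaffolds of nuclear bodies, some carry small nucleolar RNAs or microRNAs that are cut from them, some act in the cytoplasm by binding proteins or microRNAs, and for most no function is known. In macrophages a few are known as regulators of inflammatory genes. Gene type is a property of the annotation: of the 120 genes, 85 matched a RefSeq gene (GRCm38.p6) by symbol, which RefSeq types as lncRNA for 74, as protein-coding for 9 and as a pseudogene or transcribed pseudogene for 1 each. The 9 that RefSeq calls coding include 1810058I24Rik, the source of a mitochondrial micropeptide, and Tmem250-ps.

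The 6 libraries held 19.1 to 26.4 M (mega) assigned fragments, recovered from the deposited FPKM. The level of Tnfsf9 across WT replicates 1 to 3 was 14.6, 10.4 and 12.05 FPKM, against 10.7, 10.7 and 11.4 FPKM across KO-labelled replicates 1 to 3, and the groups overlapped. An exact two-sided permutation test of the means gave p = 0.4, where 0.1 is the smallest p that 3 against 3 libraries allow, and limma gave a log2 difference of -0.15 ± 0.11 (SE, adjusted p = 0.273). The labels do not state which bases of Tnfsf9 were removed, so its RNA level does not check the label, and the cells are called KO-labelled. Of 11 macrophage markers examined, 4 were higher, 5 lower and 2 did not pass the test, and 10 were above 0 in every library. The exception was Mertk, a receptor for the clearance of dead cells, at 0.0216, 0 and 0 FPKM across WT replicates 1 to 3, against 4.17, 4.42 and 4.13 FPKM across KO-labelled replicates 1 to 3. Adgre1, which encodes F4/80, rose from 11.8 ± 0.625 to 268 ± 6.07 FPKM (SD, n = 3; limma adjusted p = 6.85e-09). Cd14, the coreceptor for lipopolysaccharide, fell from 292 ± 5.68 to 45.8 ± 2.64 FPKM and Csf1r, the receptor for M-CSF, fell from 232 ± 1.22 to 134 ± 2.95 FPKM (limma adjusted p = 4.85e-08 and 2.66e-06), while Spi1, which encodes PU.1, did not pass. The summed level of the 11 was 2381 to 2430 FPKM per WT library and 1387 to 1438 FPKM per KO-labelled library. Of 22 markers of other cell types, 12 were at 0 in every library, including Cd3e, Ms4a1, Ly6g, Col1a1 and Epcam, and the sum of all 22 was 1.83 to 2.30 FPKM. The Y-linked gene Ddx3y was at 12.1, 9.92 and 10.5 FPKM in KO-labelled replicates 1 to 3 and had 1 fragment in the 3 WT libraries together, while Xist had none in any library. Eif2s3y, Uty and Kdm5d, also Y-linked, had means of 10.4, 2.40 and 1.85 FPKM in KO-labelled libraries and no fragment in WT. None of the 120 genes lies on chromosome X or Y. These differences between the cells run along with the label. What they contribute to the values below was not tested and cannot be told apart from the label with these libraries.

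Of the 119 lincRNA genes, 29 were higher and 39 lower in KO-labelled cells, and 51 did not pass the test (limma on log2(FPKM + 1), Benjamini-Hochberg adjusted p under 0.05 over all tested genes). The called share was 57.1%, beside 60.8% of all 10843 genes tested. The higher share was 24.4% beside 30.6% of all genes, and the lower share was 32.8% beside 30.2%. The 2 groups of libraries did not overlap for 69 of the 119, a share of 58.0% beside 67.4% of all tested genes. With a log2 difference of at least 1 in either direction, 34 of the 119 were called, which is 28.6% beside 13.5% of all tested genes. The median log2 difference was 0.00, beside 0.01 over all tested genes. In 39 of the 119 genes the mean of one of the groups was under 1 FPKM, so that they met the level through the other group. Of these 39, 29 (74.36%) were called, 21 of them (53.85% of the 39) with a log2 difference of at least 1. Among the other 80, 39 (48.75%) were called, 13 of them (16.25% of the 80) with a log2 difference of at least 1. These shares stand beside 60.8% and 13.5% of all tested genes, which were not split in this way. Tested lincRNA genes at or close to 0 in one group, described below, are among these 39. The called share was larger at higher levels: 27 of 57 genes with a mean of 1 to 2 FPKM, 29 of 47 with 2 to 10 FPKM and 12 of 15 with 10 FPKM or more, beside 49.9%, 58.9% and 65.5% of all tested genes in the same ranges. The share called with a log2 difference of at least 1 also depends on level. In these 3 ranges it was 26.32%, 31.91% and 26.67%, beside 21.85%, 14.58% and 10.35% of all tested genes.

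**Figure D1:**
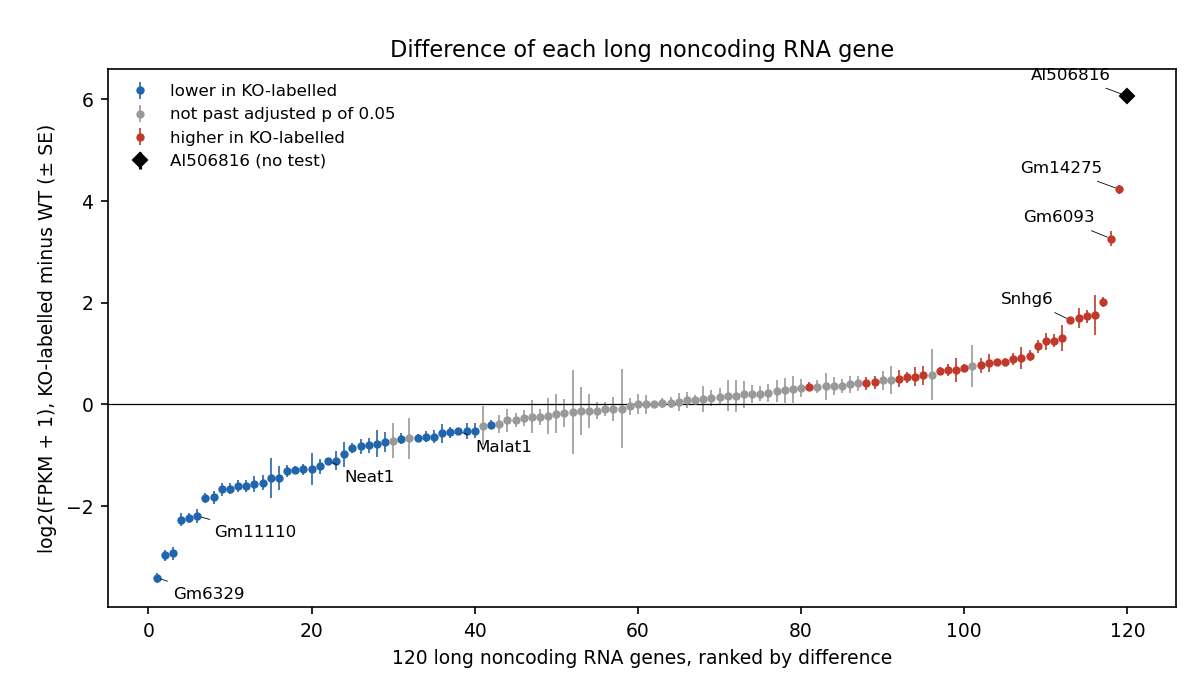
Difference of each of the 120 genes in log2(FPKM + 1), KO-labelled minus WT, ranked from lowest to highest. Points are limma estimates, bars are standard errors, and colours give the call at an adjusted p of 0.05; 39 genes lie on the lower side and 29 on the higher side, and AI506816 (black diamond, no test) lies at the top with 6.06.

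AI506816 had by far the largest difference of the 120 genes in log2(FPKM + 1), and it was included for its difference. It lies on the minus strand at chr5:23698296-23712667 (mm10; ENSMUSG00000105987), in 6 exon blocks that span 4479 bases and share no exon with a coding gene. The gene was at 0.711, 0.603 and 0.662 FPKM across WT replicates 1 to 3, against 112, 112 and 105 FPKM across KO-labelled replicates 1 to 3. Every KO-labelled library was thus far above every WT library, with means of 0.658 ± 0.05404 and 109.7 ± 4.44 FPKM (SD, n = 3) and a 167-fold ratio. It rested on 190 fragments in WT and 32142 in KO-labelled cells. By ratio of means other genes came close to it or past it. Gm11110, lower in KO-labelled cells, had a 158-fold ratio, or 56.6-fold without KO-labelled replicate 1. Gm6093, higher in KO-labelled cells, had a 103-fold ratio, or 692-fold without WT replicate 3. No function of AI506816 is given here. The promoter of AI506816 is shown because the gene had the largest log2 difference of the 120. The window runs from 250 bases before to 50 bases after the RefSeq start (GRCm38.p6, chr5:23712618-23712917, minus strand, written 5′ to 3′).
AI506816 promoter: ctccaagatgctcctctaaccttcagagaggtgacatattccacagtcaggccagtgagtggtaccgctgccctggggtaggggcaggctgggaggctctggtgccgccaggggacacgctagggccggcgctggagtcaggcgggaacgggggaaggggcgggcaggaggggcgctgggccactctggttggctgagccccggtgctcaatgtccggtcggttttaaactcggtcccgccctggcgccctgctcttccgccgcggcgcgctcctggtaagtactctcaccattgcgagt
The capitals used in a later promoter mark 3 motifs that were searched on both strands, and none of them is in this window.

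A nearby copy moved the same way. 2700038G22Rik, the host gene of the small nucleolar RNA Snord93, lies 138 kb away on the other strand, and a 347-base stretch of its transcripts is 95.4% identical to AI506816. It was at 1.67, 0.726 and 0.986 FPKM across WT replicates 1 to 3, against 3.45, 4.24 and 4.23 FPKM across KO-labelled replicates 1 to 3. All KO-labelled libraries were above all WT libraries, with a log2 difference of 1.24 ± 0.17 (SE, limma adjusted p = 6.64e-04). How fragments from the shared stretch were divided is not given in the sources used here, so the level of 2700038G22Rik is uncertain.

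Means ± SD below are over n = 3 libraries per group, with WT given before KO-labelled cells. Among the higher genes, 4 were at 0 in every WT library and so met the level through KO-labelled cells only. Gm14275 (chr2:172288133-172290520, plus strand) was at 0 across the 3 WT libraries, against 18.8, 18.8 and 15.9 FPKM across KO-labelled replicates 1 to 3. With 503 fragments in KO-labelled cells and none in WT, it was at least 54.8-fold higher against a floor of 3 fragments per library (log2 difference 4.23 ± 0.084 SE, limma adjusted p = 5.47e-08). Gm36161 was at 0 across the 3 WT libraries, against 2.91, 3.06 and 3.15 FPKM across KO-labelled replicates 1 to 3, at least 32.8-fold higher. Gm34680 had 2.34 ± 0.466 FPKM in KO-labelled libraries and was at least 22.98-fold higher. Gm32098 was the least even of the 4, at 0 across the 3 WT libraries, against 2.14, 0.954 and 5.35 FPKM across KO-labelled replicates 1 to 3, at least 9.63-fold higher from 85 fragments in all, or 5.29-fold without KO-labelled replicate 3. Each of these 4 had a limma adjusted p between 5.47e-08 and 0.00661. Gm36161 has a 95.7% identical copy, Gm21188, which makes its level uncertain.

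Gm6093 was close to 0 in WT rather than absent. Like AU022793 and Gm33103 below, it met the level through KO-labelled cells only. It was at 0.0275, 0 and 0.2504 FPKM across WT replicates 1 to 3, against 8.06, 9.11 and 11.3 FPKM across KO-labelled replicates 1 to 3. The groups did not overlap (log2 difference 3.26 ± 0.14 SE, limma adjusted p = 2.32e-06). Of its 21 fragments in WT, 19 came from replicate 3, against 2075 fragments in KO-labelled cells. Snhg6, described with the small-RNA hosts below, was the most abundant of the 10 genes with the largest increases after AI506816. D5Ertd605e rose from 1.36 ± 0.511 to 6.63 ± 1.497 FPKM (SD, n = 3; limma adjusted p = 2.71e-04). AU022793 rose from 0.385 ± 0.0652 to 2.31 ± 0.428 FPKM (limma adjusted p = 1.37e-04). Gm33103 rose from 0.619 ± 0.4599 to 2.92 ± 0.8397 FPKM (limma adjusted p = 0.00379), and WT replicate 1 was the lowest library by a wide margin at 0.0888 FPKM.

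In the other direction, 6 genes were at 0 in every KO-labelled library and so met the level through WT only: Gm6329, 4930524O08Rik, Gm10825, 4930461G14Rik, 4933438A12Rik and Gm35082. Gm6329 (chr8:45160494-45165219, minus strand) was at 10.5, 8.396 and 10.1 FPKM across WT replicates 1 to 3, against 0 across the 3 KO-labelled ones. Its log2 difference of -3.41 ± 0.098 (SE, limma adjusted p = 3.02e-07) was the lowest of the 120, and it was at least 64.1-fold lower on 583 fragments against none. 4930524O08Rik was at 3.995, 3.300 and 3.81 FPKM across WT replicates 1 to 3, against 0 across the 3 KO-labelled ones, at least 93.2-fold lower. The WT libraries were within a narrow band of each other for both genes. Gm10825 was at 2.16 ± 0.142 FPKM in WT (SD, n = 3), at least 68.6-fold lower in KO-labelled cells, and has a 99.6% identical copy, Gm26581. 4930461G14Rik and Gm35082 were at least 15.4-fold and 10.4-fold lower. 4933438A12Rik was uneven within WT, with 1.52, 4.14 and 0.576 FPKM in replicates 1 to 3, and was at least 14.95-fold lower, or 7.55-fold without WT replicate 2 (limma adjusted p = 0.0157).

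Other genes fell without reaching 0 in every KO-labelled library. Of these, Gm29340, Gm38414 and 4930471E19Rik also met the level through WT only. Gm29340, a gene with a single exon on chromosome 2, was at 7.53, 8.18 and 7.66 FPKM across WT replicates 1 to 3, against 0.0393, 0.2899 and 0.0542 FPKM across KO-labelled replicates 1 to 3. The 3 WT libraries were alike and all far above the KO-labelled ones (log2 difference -2.97 ± 0.11 SE, limma adjusted p = 9.43e-07). Of its 30 fragments in KO-labelled cells, 22 came from replicate 2, and the ratio of means was 60.9-fold with that library and 166-fold without it. Gm38414 was at 8.08, 7.15 and 6.46 FPKM across WT replicates 1 to 3, against 0, 0 and 0.244 FPKM across KO-labelled replicates 1 to 3. In KO-labelled cells its 10 fragments all came from replicate 3, and the log2 difference was -2.93 ± 0.13 (SE, limma adjusted p = 2.06e-06). Gm16001 fell from 7.69 ± 0.819 to 1.44 ± 0.197 FPKM, and 4930471E19Rik fell from 2.49 ± 0.0271 to 0.152 ± 0.135 FPKM (limma adjusted p = 6.02e-06 and 2.99e-05).

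**Figure D2:**
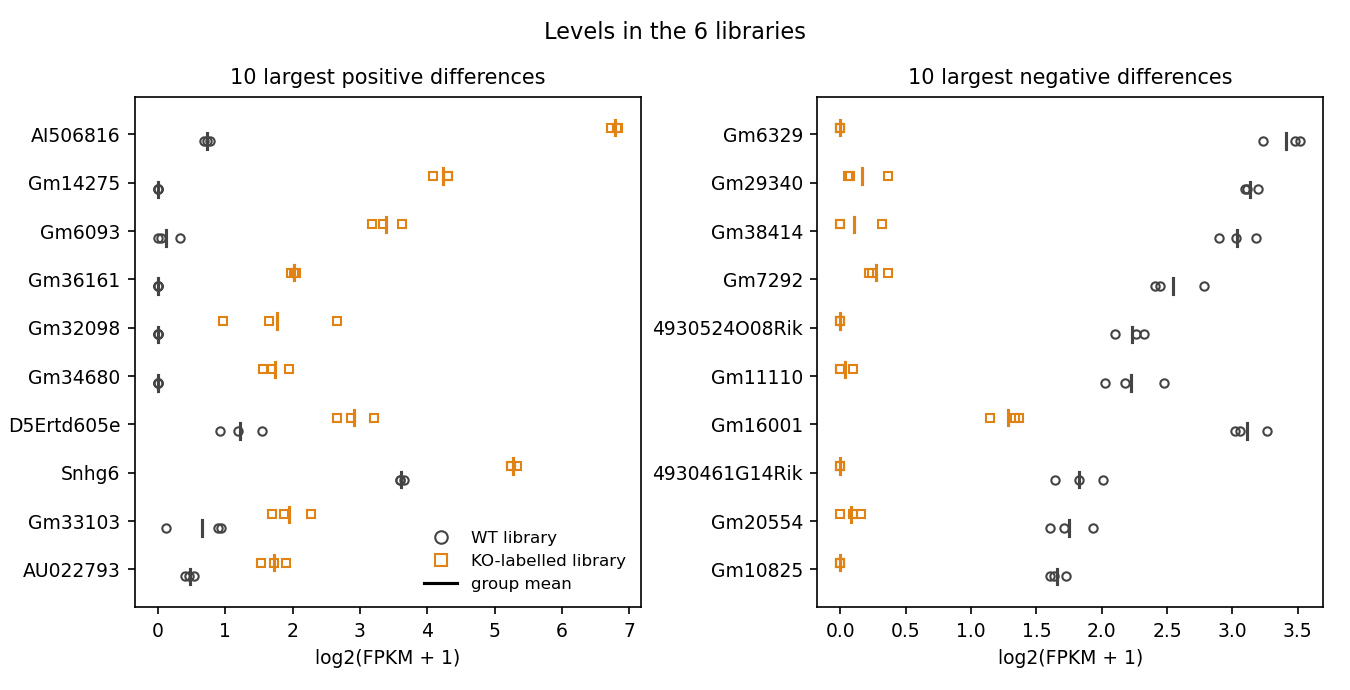
Level of the 10 genes with the largest positive and the 10 with the largest negative difference in each of the 6 libraries, in log2(FPKM + 1). Circles are WT libraries, squares are KO-labelled libraries and vertical bars are group means; the groups do not overlap for any of the 20 genes, which the choice of genes required, and Gm14275, Gm36161, Gm32098 and Gm34680 sit at 0 in WT.

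RefSeq promoters were at hand for 66 of the 120 genes, 72 promoters in all. The promoter of Gm6329, the gene with the largest decrease, is shown beside that of AI506816 above, over the same span around the RefSeq start (GRCm38.p6, chr8:45165096-45165395, minus strand, 5′ to 3′), with a match to GAGGAA, the core of sites of the macrophage factor PU.1, in capitals.
Gm6329 promoter: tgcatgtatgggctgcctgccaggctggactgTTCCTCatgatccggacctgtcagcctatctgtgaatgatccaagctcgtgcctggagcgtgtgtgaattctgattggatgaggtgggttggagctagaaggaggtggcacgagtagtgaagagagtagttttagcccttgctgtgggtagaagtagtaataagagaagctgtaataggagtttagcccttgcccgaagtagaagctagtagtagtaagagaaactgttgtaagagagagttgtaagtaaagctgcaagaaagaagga
The match lies on the opposite strand, 218 bases before the start. GAGGAA, searched on both strands, was in 33.3% of the 72 promoters beside 28.3% of all 32851 promoters of the same length. CACGTG, the E-box bound by Myc proteins, was in 6.94% beside 7.15%. TTCNNNNGAA, a spacing that STAT6, the factor activated by IL-4, binds, was in 2.78% beside 6.95%, which is 2 of 72 promoters. Such a match is a run of letters and shows no binding.

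Gm11110 overlaps the targeted gene, fell to almost nothing and met the level through WT only. It lies on the minus strand at chr17:57091370-57105942 (ENSMUSG00000079414) and its first exons run antisense across the start of Tnfsf9, so that 8.95% of its exon bases lie on 14.9% of the exon bases of Tnfsf9. It was at 4.56, 3.08 and 3.52 FPKM across WT replicates 1 to 3, against 0.0706, 0 and 0 FPKM across KO-labelled replicates 1 to 3. The lowest WT library was more than an order of magnitude above the highest KO-labelled one, on 514 fragments in WT and 4 in KO-labelled cells, and the log2 difference was -2.19 ± 0.14 (SE, limma adjusted p = 1.19e-05). Tnfsf9 itself overlapped between the groups, as given above. Tubb4a, a coding gene 3588 bases away on the same strand, was below the level for testing. It had means of 1.57 ± 0.405 FPKM (WT) and 0.0570 ± 0.0405 FPKM (KO-labelled). The longest stretch that an annotated Gm11110 transcript shares with the coding sequence of Tnfsf9 is 181 bases (GRCm38, chr17:57105432-57105612). It is shown as the Gm11110 strand reads, 5′ to 3′, with the complement of the Tnfsf9 start codon in capitals, because the levels of the 2 genes meet on these bases.
Gm11110 exon: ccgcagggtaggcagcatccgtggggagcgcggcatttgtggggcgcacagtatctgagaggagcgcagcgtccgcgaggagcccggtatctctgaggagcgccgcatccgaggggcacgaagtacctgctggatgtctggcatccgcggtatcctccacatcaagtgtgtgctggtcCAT
The labels' protocol names both a stranded and an unstranded way of preparing libraries, so fragments from this stretch cannot be assigned to a strand. Of 5 annotated Gm11110 transcripts, 3 have no base in it. Whether the deletion in the KO-labelled cells reaches these bases is not stated in the labels, and the part of the deletion in the loss of Gm11110 was not tested.

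**Figure D3:**
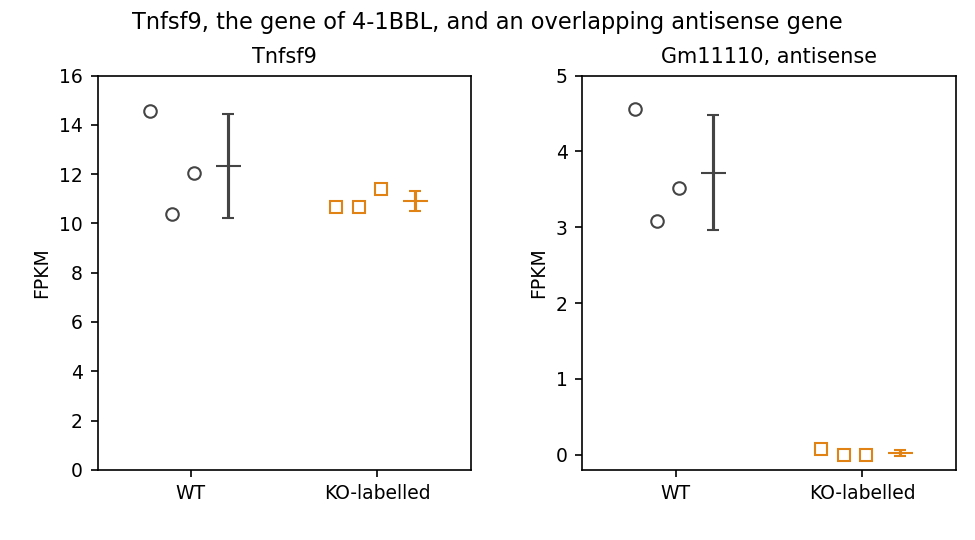
Level of Tnfsf9 (left) and of Gm11110 (right) in FPKM in each WT library (circles) and KO-labelled library (squares), with the group mean and SD beside the points. Tnfsf9 overlaps between the groups, from 10.4 to 14.6 and from 10.7 to 11.4 FPKM, while Gm11110 goes from 3.08 to 4.56 FPKM down to 0 to 0.0706 FPKM.

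The 2 nuclear RNAs were both lower in KO-labelled cells. Malat1, an abundant RNA of nuclear speckles, lies at chr19:5795690-5802672 on the minus strand and was at 18.8, 18.3 and 17.9 FPKM across WT replicates 1 to 3, against 12.7, 12.4 and 12.2 FPKM across KO-labelled replicates 1 to 3. Neat1, the RNA around which paraspeckles are built, lies 22.04 kb away on the same strand at chr19:5824708-5845478 and was at 5.49, 6.06 and 5.85 FPKM across WT replicates 1 to 3, against 2.15, 2.201 and 2.06 FPKM across KO-labelled replicates 1 to 3. For both genes all KO-labelled libraries were below all WT libraries, and the replicates of a group were close to each other. The log2 difference was -0.53 ± 0.046 (SE, limma adjusted p = 6.56e-05) for Malat1, a 1.48-fold ratio, and -1.12 ± 0.068 (SE, limma adjusted p = 1.07e-05) for Neat1, a 2.71-fold ratio. The mature 3′ end of Malat1 is known to be protected by a triple helix with an A-rich tract and not by an added poly(A) tail, and the labels describe selection of RNA on oligo-dT beads, so the level here is that of the RNA caught by such beads. The longest run of A in the annotated Malat1 transcript, 12 bases in capitals, is that tract. It is followed by the start of the tRNA-like small RNA that is cut from the end (bases 6644 to 6715 of the 6983 in the transcript, 5′ to 3′).
Malat1 3′ region: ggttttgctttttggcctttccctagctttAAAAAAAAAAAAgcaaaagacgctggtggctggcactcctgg
The longest run of A in the annotated long Neat1 transcript of 20771 bases is 7 bases. The deposited values are per gene and do not separate the short, polyadenylated Neat1 isoform from the long isoform that forms paraspeckles.

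Of 10 genes listed for nuclear bodies, Malat1, Neat1 and 8 paraspeckle or RNA-binding proteins, 7 were lower, none higher and 3 did not pass the test, a lower share of 70.0% beside 30.2% of all tested genes. This list and the lists below were chosen with earlier results of these data known, so their shares are descriptions only. Cpsf6, a cleavage factor subunit, fell from 23.2 ± 0.205 to 13.9 ± 0.608 FPKM (limma adjusted p = 2.14e-05). Differences of Pspc1, Sfpq, Hnrnpk and Tardbp were small, with log2 values of -0.25, -0.17, -0.16 and -0.15. Rescaled to TPM, 3 genes stayed lower, these 4 calls were lost and 2 genes were called higher. Malat1, Neat1 and Cpsf6 were lower under every scaling tried. Nono, the core protein of paraspeckles, had means of 82.2 ± 2.24 (WT) and 84.6 ± 2.11 FPKM (KO-labelled) (SD, n = 3; log2 difference 0.04, 95% interval -0.06 to 0.14). Nudt21, a partner of Cpsf6 in the cleavage factor, and Rbm14, a paraspeckle protein, did not pass either, with log2 differences of 0.10 and -0.23.

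Several small-RNA host transcripts were higher in KO-labelled cells. These genes carry small nucleolar RNAs, which guide the modification of ribosomal and other RNAs, or microRNAs. Of 27 listed hosts, lincRNA or of another type, 23 matched a gene in the files and 14 were tested. Of these 14, 8 were higher, 1 lower and 5 did not pass, a higher share of 57.1% beside 30.6% of all tested genes. Across the alternatives 7 or 8 of the 14 were higher, other than with a filter at a mean of 5 FPKM, where 6 of 8 tested were higher. Snhg6, the host of Snord87 (chr1:9941959-9944118), was at 11.1, 11.1 and 11.6 FPKM across WT replicates 1 to 3, against 36.8, 36.9 and 39.1 FPKM across KO-labelled replicates 1 to 3. All KO-labelled libraries were above all WT libraries by a 3.34-fold ratio of means (log2 difference 1.66 ± 0.047 SE, limma adjusted p = 2.93e-07). Its exons overlap 127 bases of Mcmdc2, a coding gene at 0.00264 FPKM (WT) and 0.00641 FPKM (KO-labelled). Snhg20 rose from 2.92 ± 0.198 to 4.003 ± 0.423 FPKM (limma adjusted p = 0.0121). Epb41l4aos rose from 16.1 ± 3.21 to 23.3 ± 3.74 FPKM (limma adjusted p = 0.0319), but its groups overlapped slightly and the call was lost in 6 of the alternatives, with adjusted p up to 0.102. Among hosts of other gene types, Gas5 rose from 13.9 ± 0.534 to 25.6 ± 0.475 FPKM, Zfas1 from 9.21 ± 1.41 to 14.5 ± 1.89 FPKM and Snhg5 from 12.6 ± 1.405 to 17.6 ± 0.977 FPKM (limma adjusted p = 7.92e-06, 0.00479 and 0.00315). Snhg1 rose from 13.2 ± 0.176 to 15.7 ± 0.9301 FPKM (limma adjusted p = 0.00955). Snhg17 was the single lower host of the 14 (-0.23, limma adjusted p = 0.0485), a call lost in most alternatives. Hosts outside the list are not in these counts: 2700038G22Rik, given above, was called higher, and Mir142hg, given below, was called lower. AI506816, also outside the list, holds Mir3096 in an intron, which the annotation types as a small nucleolar RNA. Snhg12 had means of 4.07 ± 0.604 (WT) and 4.16 ± 0.263 FPKM (KO-labelled) (log2 difference 0.03, 95% interval -0.20 to 0.27), and Snhg10, outside the list, had means of 2.05 ± 1.35 (WT) and 1.58 ± 0.254 FPKM (KO-labelled) with a wide interval of -0.93 to 0.67. Snhg8, Snhg15 and Dancr did not pass, with log2 differences of 0.00, 0.25 and 0.16.

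Mir17hg and Mir142hg, hosts of microRNAs, went in opposite directions. Mir17hg, the primary transcript of the miR-17 to miR-92 cluster that Myc is known to activate (chr14:115042879-115046727), was at 2.44, 1.98 and 1.99 FPKM across WT replicates 1 to 3, against 3.44, 3.15 and 4.05 FPKM across KO-labelled replicates 1 to 3. Every KO-labelled library was above every WT library (log2 difference 0.53 ± 0.11 SE, limma adjusted p = 0.003897). Mir142hg, the host of miR-142, a microRNA of blood cells (chr11:87755577-87757270), was at 6.96, 3.94 and 8.18 FPKM across WT replicates 1 to 3, against 3.099, 4.34 and 2.33 FPKM across KO-labelled replicates 1 to 3. Its groups overlapped, since WT replicate 2 was below KO-labelled replicate 2, and the log2 difference of -0.77 ± 0.26 (SE, limma adjusted p = 0.0375) passed the test but lost its call in 8 alternatives. Mature microRNAs are not measured by poly(A) RNA sequencing. The main arms that the hosts encode are shown from RefSeq (GRCm38.p6), 5′ to 3′, with the seed, bases 2 to 8, in capitals, since the seed defines which messenger RNAs are recognised.
miR-17-5p: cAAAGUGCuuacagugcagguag
miR-20a-5p: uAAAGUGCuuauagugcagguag
miR-18a-5p: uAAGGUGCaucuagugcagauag
miR-19a-3p: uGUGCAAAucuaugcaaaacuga
miR-19b-3p: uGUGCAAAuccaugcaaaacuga
miR-92a-3p: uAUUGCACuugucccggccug
miR-142a-5p: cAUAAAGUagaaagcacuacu
miR-142a-3p: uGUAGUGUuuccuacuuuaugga
miR-17-5p and miR-20a-5p share 1 seed and miR-19a-3p and miR-19b-3p another. The 6 hairpins of the cluster lie within exons of Mir17hg and that of miR-142 lies in an intron of Mir142hg.

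**Figure D4:**
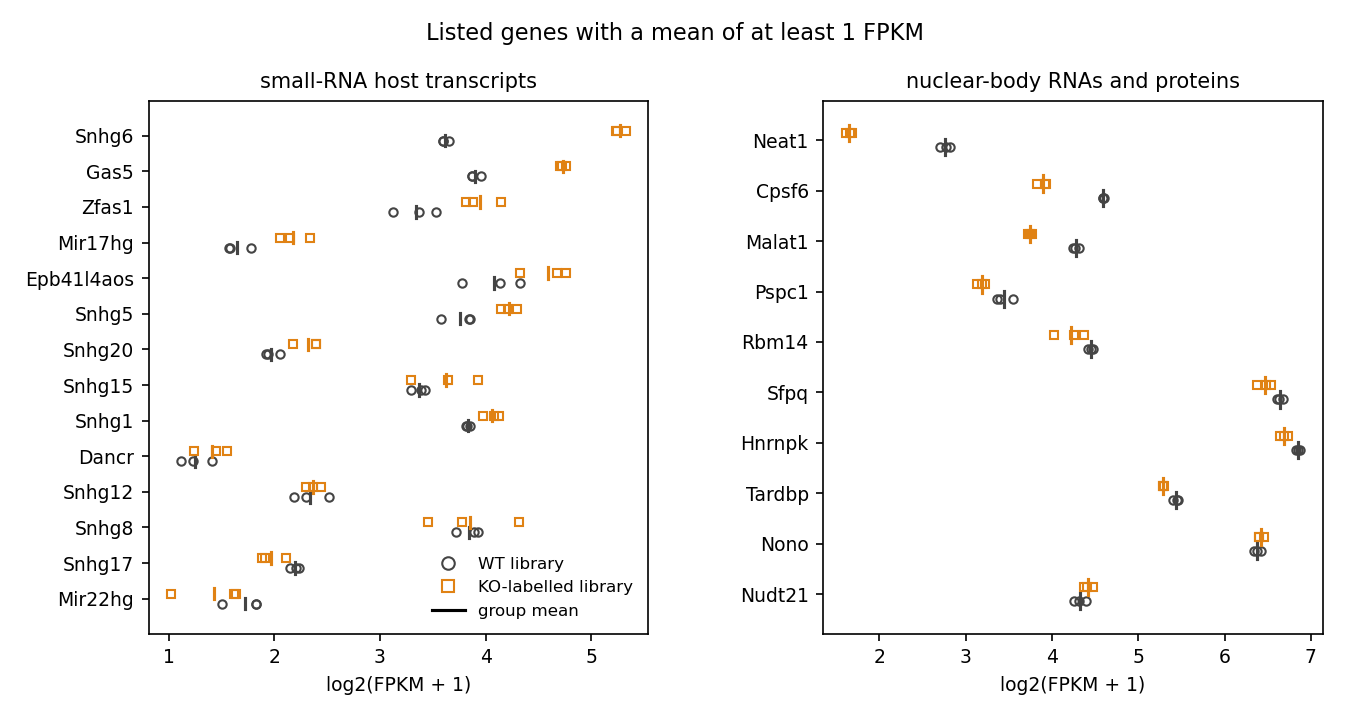
Level in each library, in log2(FPKM + 1), of the 14 small-RNA hosts of the list that were tested (left) and of the 10 nuclear-body RNAs and proteins (right), sorted by difference. Circles are WT libraries, squares are KO-labelled libraries and bars are group means; 8 hosts are higher and 1 lower in KO-labelled cells, and 7 nuclear-body genes are lower, or 3 after rescaling to TPM, with the widest gaps for Snhg6, Gas5, Neat1 and Cpsf6.

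Among long noncoding RNAs with published roles in macrophages, 7 of 16 listed were tested, and 2 were higher, 4 lower and 1 did not pass, a called share of 85.7% beside 60.8% of all tested genes. Ptgs2os2, better known as lincRNA-Cox2, which regulates inflammatory genes and lies near Ptgs2, was at 4.67, 3.07 and 5.61 FPKM across WT replicates 1 to 3, against 0.543, 0.902 and 1.56 FPKM across KO-labelled replicates 1 to 3. WT libraries were all above KO-labelled ones, with a log2 difference of -1.45 ± 0.24 (SE, limma adjusted p = 0.00161). Ttc39aos1, known as lincRNA-EPS, a restrainer of immune genes and not of lincRNA type in this annotation, fell from 6.18 ± 0.9101 to 2.72 ± 0.523 FPKM (limma adjusted p = 7.47e-04). Malat1 and Neat1 are the other 2 that were lower. Tug1 rose from 6.85 ± 0.451 to 10.1 ± 0.663 FPKM (limma adjusted p = 7.67e-04), and Gas5 is given above. Of the others, Pvt1, with a mean of 0.796 FPKM, Dnmt3aos, Mir155hg, Mirt1, Mirt2, Lncpint, Meg3 and H19 were below the level for testing, Mirt2 at 0 in every library, and Morrbid matched no gene by that symbol. Mir22hg had means of 2.31 ± 0.416 (WT) and 1.74 ± 0.611 FPKM (KO-labelled) and did not pass.

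Widely expressed long noncoding RNAs differed among themselves. 2900097C17Rik, which RefSeq names Norad, a cytoplasmic RNA that binds Pumilio proteins, rose from 20.4 ± 0.302 to 36.99 ± 2.39 FPKM (SD, n = 3), with a log2 difference of 0.83 ± 0.056 (SE, limma adjusted p = 1.87e-05). 1700020I14Rik, which RefSeq names Oip5os1 and which is known as Cyrano, the RNA that directs decay of miR-7, rose from 6.14 ± 0.294 to 10.8 ± 0.616 FPKM (limma adjusted p = 6.81e-05). These were named after their values were seen. Crnde rose from 1.05 ± 0.367 to 3.19 ± 0.622 FPKM, and Dubr, known for a part in muscle differentiation, fell from 5.801 ± 0.418 to 2.88 ± 0.7799 FPKM (limma adjusted p = 0.00149 and 0.00198). G730013B05Rik, 160 kb from Dubr on chromosome 16, also fell, from 21.3 ± 0.668 to 14.3 ± 2.35 FPKM (limma adjusted p = 0.003299). Hotairm1, an RNA of the HoxA cluster in myeloid cells, had means of 2.79 ± 0.887 (WT) and 2.83 ± 1.07 FPKM (KO-labelled) (95% interval of the log2 difference -0.61 to 0.61). Peg13 was the only imprinted RNA of 9 listed that reached the level and fell from 1.68 ± 0.193 to 0.471 ± 0.188 FPKM (limma adjusted p = 0.00107). Peg13 met the level through WT only. Of 5 listed RNAs of the X chromosome, Firre alone was tested and did not pass (-0.29, limma adjusted p = 0.0593). Detected below the level were also Ftx, Dleu2, Lockd, Jpx, Snhg3, Airn, Mir99ahg, Snhg18, Nespas, Trp53cor1, Kcnq1ot1, Fendrr, Snhg14 and Rian of the lists, with means of 0.00126 to 0.683 FPKM. AU020206 rose from 10.8 ± 0.536 to 17.7 ± 1.38 FPKM (limma adjusted p = 1.80e-04).

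The highest mean levels among the 120 genes belonged to Gm10076, Gm26917, Gm43351, AI506816 and Gm42047. Gm10076 was at 29.99, 269 and 35.4 FPKM across WT replicates 1 to 3, against 67.7, 35.4 and 88.3 FPKM across KO-labelled replicates 1 to 3. WT replicate 2 stood far above the other 5 libraries, the groups overlapped, and the gene is a 99.0% identical copy of the ribosomal protein gene Rpl41, so its level is uncertain. Gm26917 was at 81.3, 81.00 and 83.7 FPKM across WT replicates 1 to 3, against 83.3, 62.5 and 47.4 FPKM across KO-labelled replicates 1 to 3. Its WT libraries were alike, KO-labelled replicates 2 and 3 were lower and replicate 1 was within the WT range, and it did not pass (log2 difference -0.38 ± 0.18 SE, limma adjusted p = 0.106). Without KO-labelled replicate 1 the limma adjusted p was 0.00614. Gm26917 lies 12 bases from CT010467.1, an annotated ribosomal RNA gene at 252 ± 46.4 FPKM (WT) and 236 ± 85.5 FPKM (KO-labelled). The part of ribosomal RNA in the level of Gm26917 was not tested, so that level is uncertain. Gm43351 fell from 83.9 ± 7.24 to 35.97 ± 7.36 FPKM and Gm42047 fell from 42.2 ± 2.37 to 16.7 ± 1.65 FPKM, with no overlap (limma adjusted p = 3.65e-04 and 1.16e-05). The summed level of the 120 genes was 679 to 920 FPKM (WT) and 719 to 754 FPKM (KO-labelled), between 0.222% and 0.294% of all FPKM. Without AI506816 and Gm10076 the sums were 649 to 671 FPKM (WT) and 558 to 574 FPKM (KO-labelled). In bulk RNA, fewer cells with a transcript and less transcript per cell cannot be told apart.

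Exons of 8 genes overlap an exon of a coding gene, and 4 of the 8 were called, 2 in each direction, beside a called share of 60.8% of all tested genes. Besides Gm11110 with Tnfsf9 and Snhg6 with Mcmdc2, Gm16973 lies antisense to Mphosph8, a component of the HUSH silencing complex, with 15.9% of its exon bases. Gm16973 met the level through WT only. Gm16973 fell from 1.53 ± 0.474 to 0.744 ± 0.1296 FPKM and Mphosph8 fell from 14.9 ± 0.609 to 11.1 ± 0.957 FPKM (log2 difference -0.39, limma adjusted p = 0.002399), but the call of Gm16973 was lost in 6 alternatives. Gm48604 shares 24 bases with Hinfp on the same strand and rose from 1.09 ± 0.0526 to 2.34 ± 0.441 FPKM, while Hinfp went from 4.72 ± 0.188 to 5.32 ± 0.281 FPKM and did not pass. The 4 others, Gm38399 with Nav1, 1700086O06Rik with Dele1, Gm20707 with Zfp984 and Gm17300 with Rcc1, did not pass the test. Because strand use in the counting is unknown, values of all 8 may hold fragments of the coding partner.

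Within 5 kb or overlapping, 44 of the 120 genes had 54 pairings with a tested coding gene. Both members of the pair were called in 14 pairs, and 12 of these, 85.7%, moved in the same direction. Among pairs of coding genes at the same distance both were called in 1099 of 3040, of which 66.2% moved in the same direction. The difference between these shares was not tested. A330074K22Rik, below, met the level through KO-labelled cells only, and Gm20554 through WT only. Gm20554 (chr13:72626213-72628564) starts 256 bases from Irx2, a homeobox gene on the other strand. It was at 2.83, 2.28 and 2.04 FPKM across WT replicates 1 to 3, against 0.113, 0 and 0.0667 FPKM across KO-labelled replicates 1 to 3. Irx2 fell from 20.4 ± 1.97 to 4.31 ± 0.9799 FPKM (log2 difference -2.02, limma adjusted p = 2.19e-05). Gm28875 fell from 7.93 ± 1.08 to 2.597 ± 0.343 FPKM, and Syne3, a nuclear envelope gene 3244 bases away on the same strand, fell from 17.7 ± 0.964 to 6.82 ± 1.26 FPKM (log2 difference -1.27, limma adjusted p = 7.66e-05). In the other direction, A330074K22Rik rose from 0.359 ± 0.194 to 1.98 ± 0.2201 FPKM, and Gse1, whose start lies 226 bases off in divergent orientation, rose from 3.77 ± 0.139 to 5.88 ± 0.595 FPKM (log2 difference 0.52, limma adjusted p = 0.00114). Cyrano and its neighbour Oip5 both rose, with log2 differences of 0.72 and 0.32. The 2 pairs in opposite directions were Gm16001 with Arl6ip4 and Mir142hg with Tspoap1. Ogfod2 starts 33 bases from Gm16001 in divergent orientation, closer than Arl6ip4, and did not pass (log2 difference -0.23, limma adjusted p = 0.0523). Tspoap1 was at 0.133 ± 0.0861 FPKM (WT) and 2.84 ± 0.294 FPKM in KO-labelled cells. Frmd8, 4224 bases from Neat1, did not pass (log2 difference -0.08, limma adjusted p = 0.348).

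**Figure D5:**
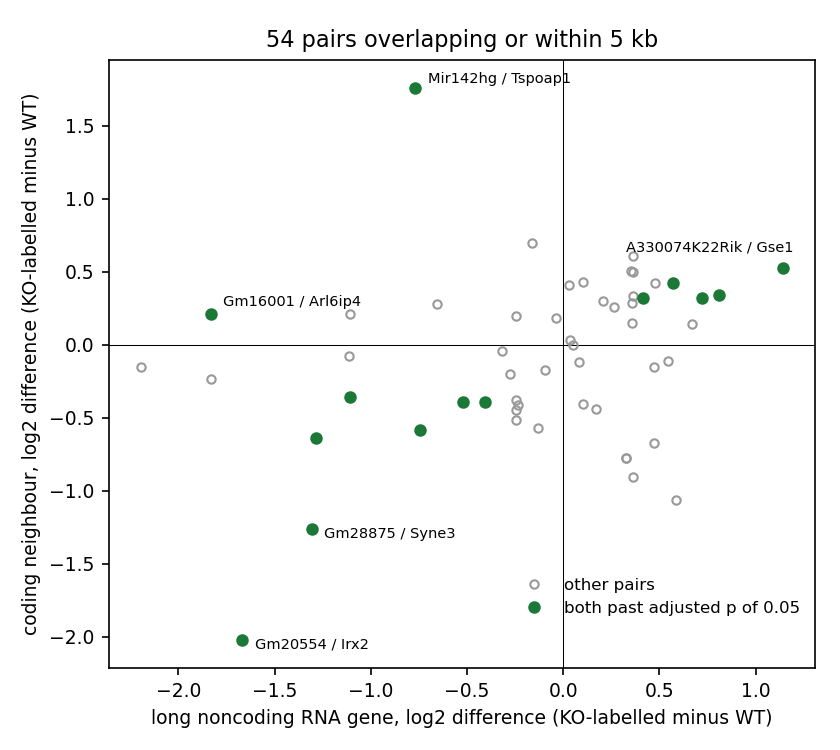
Log2 difference of each long noncoding RNA gene (horizontal) against that of a coding gene that overlaps it or lies within 5 kb (vertical), KO-labelled minus WT, for 54 pairs. Filled points are the 14 pairs in which both genes pass an adjusted p of 0.05; 12 of them lie at lower left or upper right, and Gm16001 with Arl6ip4 and Mir142hg with Tspoap1 lie in the upper left.

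Near-identical copies elsewhere in the genome were found for 14 of the 120 genes, and their values are uncertain. The Norad gene and Gm7292 are 99.2% identical over 2537 bases and moved in opposite directions. Gm7292 met the level through WT only. Gm7292 was at 5.89, 4.29 and 4.46 FPKM across WT replicates 1 to 3, against 0.165, 0.181 and 0.2895 FPKM across KO-labelled replicates 1 to 3, a fall to below the WT range in every KO-labelled library (log2 difference -2.27 ± 0.13 SE, limma adjusted p = 6.75e-06), whereas Norad rose as given above. Gm28901 rose from 1.45 ± 0.547 to 2.97 ± 1.12 FPKM and is 99.5% identical to part of Hnrnpf, and its call was lost in 9 alternatives. Gm5165 and Gm6712, 28.4 kb apart on chromosome 17 and 95.4% identical, did not pass.

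Some genes were close to level between the groups. Tmem250-ps was at 13.1, 13.7 and 14.1 FPKM across WT replicates 1 to 3, against 13.8, 13.8 and 13.7 FPKM across KO-labelled replicates 1 to 3. The WT range enclosed every KO-labelled value, and the 95% interval of the log2 difference was -0.10 to 0.13. 4632415L05Rik, which RefSeq calls a transcribed pseudogene, had means of 8.25 ± 0.933 (WT) and 8.85 ± 0.572 FPKM (KO-labelled) (interval -0.12 to 0.30). 1810058I24Rik, the micropeptide gene, fell from 13.7 ± 0.549 to 8.54 ± 1.44 FPKM (limma adjusted p = 0.00233). For Gm45027, whose exons span 78 bases and which was at 0 in 3 of 6 libraries, the interval ran from -1.92 to 1.75, so that a difference of several fold in either direction was not detectable.

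At the level that chose the genes, Gm30108, Gm12762 and Gm13431 were just inside with means of 1.005, 1.01 and 1.01 FPKM over the 6 libraries. Just outside were 2310043L19Rik, 4930440I19Rik and Platr27 with 0.998, 0.994 and 0.988 FPKM. 2310043L19Rik was at 1.68, 1.86 and 2.45 FPKM across WT replicates 1 to 3, against 0 across the 3 KO-labelled ones. Platr27 was at 0.298, 0.0766 and 0.0714 FPKM across WT replicates 1 to 3, against 0.964, 1.78 and 2.74 FPKM across KO-labelled replicates 1 to 3. Genes just under the level thus included some with wide gaps between the groups, as did those just above it.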

How the data were processed

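The authors deposited FPKM for 54532 Ensembl genes, with a separate file for each library. HISAT2 2.0.5 and featureCounts 1.5.0-p3 are the tools named in the submitters' processing notes, with mm10 as the build. Annotation release, strand setting and treatment of multi-mapping reads: not given in the sources used here. Symbols, types and positions came from GENCODE M21 on the same build, where 54495 identifiers matched and 37 did not.

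The 119 lincRNA genes, AI506816 and the gene lists were chosen with earlier results of these data known. Groups came from the labels, with 3 WT and 3 KO-labelled libraries. All 10843 genes that averaged 1 FPKM or more were tested together on log2(FPKM + 1) by limma 3.58.1 (R 4.3.3) with its trend of variance on level, as KO-labelled minus WT, two-sided, with Benjamini-Hochberg adjustment and a threshold of 0.05. This scale understates changes of weakly expressed genes. Folds are ratios of mean FPKM. The procedure was also run on simulated data in which few genes changed. That run does not check a comparison in which 60.8% of all tested genes are called. Counts of single genes by list are descriptions, and no set test was run. 1 further gene, of the kind of the nuclear-body list, was left out of that list and of its counts and is not reported here.

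Library depth was recovered from the steps of FPKM times exon length, where about 98.0% of values up to 200 fragments were whole within 0.1. Fragment numbers were recovered for 118 of the 120 genes, with a median of 393.5 over the 6 libraries, and 10 genes had under 100. They served for floors of 3 fragments per library and for a voom alternative. Floors cover counting error only. Near-identical copies were found with BLAST+ 2.17.0+ from annotated transcripts, requiring 95% identity across 80% of the shorter transcript and 150 bases. Neighbours were coding genes that overlapped or lay within 5 kb.

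Genes named are AI506816, Neat1 and Malat1, the 5 highest means, the 10 largest differences in each direction among called genes without overlap between groups, detected long noncoding RNAs of the lists, the 3 genes on either side of the level limit and coding neighbours of these. Others, such as 1700020I14Rik, 2900097C17Rik, 1810058I24Rik, AU020206, 4930471E19Rik, Tmem250-ps and the overlap and copy examples, were chosen after their values were seen. Alternatives covered pseudocount, filter, scaling, voom, variance trend, the replicate block, each library left out and removal of genes that share coding exons.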

Additional observations from a re-analysis of the deposited data

How the results depend on the processing

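Of 119 lincRNA genes, 29 rose and 39 fell in KO-labelled cells. With a filter at a mean of 5 FPKM only 24 of them were tested, and 8 were higher and 10 lower. Under the other alternatives the counts were 23 to 34 higher and 36 to 40 lower, within 1.5 times the first counts. Leaving out each library in turn gave 24 to 28 higher and 36 to 39 lower, with a median log2 difference of -0.06 to 0.03. With the replicate number as a replicate block, 30 were higher and 37 lower, and 63 of the 68 calls were shared. The number did not pair the libraries: deviations of libraries with the same number correlated at -0.03, 0.05 and -0.03. Rescaling to TPM shifted the median of all genes to 0.10 and gave 34 higher and 38 lower. In all, 57 of the 68 called genes were called in every alternative that tested them, and no called gene changed sign in these. Of the 51 that did not pass, 18 were called in at least 1 alternative. The difference of AI506816 was 6.06 with a pseudocount of 1, 7.18 with 0.1, 6.92 on TPM and 7.40 with voom. Of 10 genes with under 100 recovered fragments over the 6 libraries, 3 were called and 7 did not pass.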

Other observations

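Several other lincRNA genes differed between the groups and belong to none of the lists. 3300005D01Rik fell from 17.6 ± 1.03 (WT) to 5.36 ± 1.55 FPKM (KO-labelled; SD, n = 3; limma adjusted p = 1.40e-04). Gm35037 fell from 6.10 ± 1.195 to 1.44 ± 0.286 FPKM, and Gm40723 from 6.84 ± 0.964 to 3.31 ± 0.222 FPKM (limma adjusted p = 9.24e-05 and 3.48e-04). Gm12606 rose from 3.77 ± 0.295 to 7.48 ± 0.595 FPKM, and 2310040G24Rik from 2.45 ± 0.570 to 5.36 ± 0.424 FPKM (limma adjusted p = 1.14e-04 and 7.99e-04). The groups did not overlap for any of these 5 genes, which were picked after their values were seen.

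Other noncoding gene types had different splits between the directions. Of 58 tested genes of the type processed transcript, 26 (44.8%) were higher and 8 (13.8%) lower, with a median log2 difference of 0.25. The 26 include AI506816, chosen for its difference, and the hosts Gas5, Snhg1, Snhg5 and Zfas1 given above. Of 59 tested antisense genes 14 (23.7%) were higher and 15 (25.4%) lower, with a median of 0.05. The lincRNA genes had 29 (24.4%) higher and 39 (32.8%) lower of 119. Of all tested genes, 30.6% were higher and 30.2% lower. Differences between the types were not tested.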
